A study of Mus musculus with 5 samples.

Results

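Type 2 conventional dendritic cells (cDC2) were described in single-cell RNA sequencing of white blood cells from B16-F10 tumors, a mouse melanoma line grown under the skin. A barcode was a member when it held at least 2 unique molecular identifiers (UMIs) of Cd209a and at least 1 of H2-DMb2, fewer than 2 of Xcr1 and Clec9a together, at most 2 of C1qa, C1qb and C1qc together, and 0 of Fscn1, Siglech, Cd3e, Cd3d, Cd3g, Ncr1 and Cd79a. Of 37468 barcodes, 37074 had at most 10% of UMIs from mitochondrial genes, and 250 of these were members. Mice had received 500000 tumor cells, tumors were taken on day 11, and live CD45-positive cells were sorted and run with a 5' droplet kit. The 5 libraries, 1 for each treatment, came from tumors of mice given anti-PD1 (an antibody against the inhibitory receptor PD-1), IL15 superagonist (a strengthened form of the cytokine interleukin 15), IL15 superagonist with anti-PD1 (combination), anti-PD1-IL15 protein fusion (fusion) or PBS, the saline control. All 5 groups were mice with B16-F10 tumors. Their strain, age and sex, the doses and the number of mice per library are not given in the labels, which place treatment after resection. The treatment tag of the combination names IL15, whereas its title names the superagonist.

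Conventional dendritic cells take up antigen and show its peptides to T cells. The cDC1 branch, which carries Xcr1 and Clec9a, is best known for showing antigen on MHC class I to CD8 T cells, and the cDC2 branch for showing it on MHC class II to CD4 T cells. In tumors cDC2 resemble monocyte-derived cells in several surface molecules, and both react to type I interferon and to interferon gamma from T and NK cells. Cd209a encodes a sugar-binding receptor of cDC2 and of some monocyte-derived cells, and H2-DMb2 a chain of the H2-DM complex, which loads peptides onto MHC class II.

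There were 77 members in anti-PD1, 34 with IL15 superagonist, 56 with the combination, 8 with fusion and 75 with PBS. Their median depth was 8453 UMIs in anti-PD1, 9829 with IL15 superagonist, 11296 with the combination, 9974.5 with fusion and 7585 with PBS, with totals of 703823, 335826, 636434, 76345 and 592297 UMIs in that order. Whole libraries held 81565425 UMIs with fusion down to 32832856 with PBS. PBS members were thus the shallowest, and the 8 fusion members give the least precise values. Levels are summed UMIs of the members scaled to 1000000 of all their UMIs (CPM). Intervals are exact 95% intervals, Poisson for a level, conditional binomial for a ratio and Clopper-Pearson for a share, and cover counting error only. No treatment has a replicate library, so no difference was tested. Ratios of gene levels were taken where both libraries had at least 30 members, which leaves fusion with levels alone, and a gene counts as 2-fold higher or lower by its ratio after 0.5 was added to each count. No barcode was a member in more than 1 library, while 10 members carried a barcode also seen in another library, beside 768 barcodes of all kinds shared by 2 libraries and 6 by 3.

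The selection itself sets the levels of its genes. Cd209a was 1249 CPM with anti-PD1, 1843 with IL15 superagonist, 1370.1 with the combination, 1009 with fusion and 961 with PBS, and these values are a description. Members at the limit of 2 Cd209a UMIs numbered 11 with anti-PD1, 4 with IL15 superagonist, 5 with the combination, 2 with fusion and 15 with PBS. Just outside it, barcodes that met every other condition with 1 Cd209a UMI numbered 15, 7, 8, 2 and 17 in the same order. With 1 H2-DMb2 UMI there were 21, 10, 10, 3 and 26 members, and barcodes with 0 that met the other conditions numbered 53, 25, 36, 2 and 102. PBS held the most barcodes close to both limits.

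Members were rarer in the IL15-containing treatments when counted against all white blood cells. They made up 1.06% (0.834% to 1.32%) of kept barcodes in anti-PD1, 0.508% (0.352% to 0.710%) with IL15 superagonist, 0.659% (0.498% to 0.855%) with the combination, 0.0924% (0.0399% to 0.182%) with fusion and 1.26% (0.994% to 1.58%) with PBS. Relative to PBS the share was 0.837 times (0.601 to 1.17) with anti-PD1, 0.403 times (0.261 to 0.612) with IL15 superagonist, 0.523 times (0.363 to 0.749) with the combination and 13.7 times lower (6.58 to 32.8) with fusion. The interval for anti-PD1 includes equal shares, and the others do not. This order depended on depth and on the denominator. After barcodes were thinned to 2000 UMIs before selection, the ratio of IL15 superagonist to PBS was 0.752, from 20 and 22 members. Of barcodes without a UMI of Cd3e, Cd3d, Cd3g, Ncr1 or Cd79a, members were 1.74% with anti-PD1, 1.65% with IL15 superagonist, 2.29% with the combination, 1.09% with fusion and 2.08% with PBS. On that scale the ratio to PBS was 0.793 (0.513 to 1.20) with IL15 superagonist, 1.10 (0.765 to 1.58), in the other direction, with the combination, and 0.522 (0.217 to 1.08) with fusion, and each interval includes equal shares.

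Among dendritic cells, members held the largest share in combination. Counted with a cDC1 gate (at least 2 UMIs of Xcr1 and Clec9a together) and a mature dendritic gate (at least 2 UMIs of Fscn1 and 1 of Ccr7), members were 31.4% (25.7% to 37.6%) with anti-PD1, 26.8% (19.3% to 35.4%) with IL15 superagonist, 47.1% (37.8% to 56.4%) with the combination, 17.4% (7.82% to 31.4%) with fusion and 24.3% (19.6% to 29.4%) with PBS. The interval of combination overlapped neither that of PBS nor that of anti-PD1 or IL15 superagonist, though it started at 37.8% and that of anti-PD1 ended at 37.6%. Combination members were also the deepest. A UMI of the monocyte gene Ly6c2 was found in 42.9% of them, beside 18.7% with PBS. This share was not taken again after thinning or without members that had Ly6c2. The mature gate held 39 barcodes in anti-PD1, 25 with IL15 superagonist, 13 with the combination, 5 with fusion and 115 with PBS, and the cDC1 gate 129, 68, 50, 33 and 119.

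**Figure D1:**
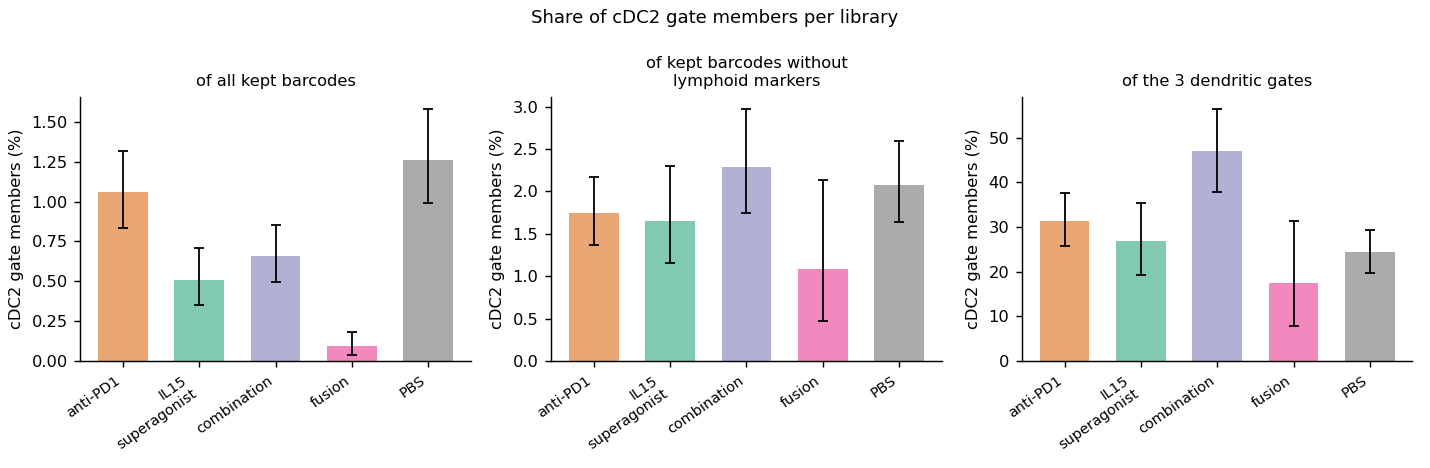
Percent of barcodes that were cDC2 gate members in each library, out of all kept barcodes (left), kept barcodes without lymphoid markers (middle) and the 3 dendritic gates (right). Bars are 1 library each and error bars exact Clopper-Pearson 95% intervals, and the fusion bar is at 0.0924% on the left and 1.09% in the middle.

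The label was set beside genes the selection did not use, first Clec10a and Mgl2, which had been named as its markers beforehand. Clec10a, a galactose-binding lectin of cDC2 on chromosome 11, was 671 CPM with anti-PD1, 703 with IL15 superagonist, 676 with the combination, 891 with fusion and 645 with PBS. It was close to even across libraries, and at least 9.91-fold above the cDC1, mature and monocyte gates in each of the 10 pairs with at least 30 barcodes in both. Its neighbour on chromosome 11, Mgl2, a second lectin of the same kind, was 212 CPM with anti-PD1, 506 with IL15 superagonist, 661 with the combination, 118 with fusion and 365 with PBS, and at least 4.45-fold above those gates. Mgl2 therefore varied between treatments where Clec10a did not, at 3.12-fold higher (2.59 to 3.79) in combination than in anti-PD1.

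Other genes that led over the 3 gates were Cfp, which encodes properdin of the complement system, by at least 2.91-fold, Klrd1, the CD94 chain of NK-cell receptors, by at least 2.42-fold, Ifitm1, an interferon-induced membrane protein, by at least 2.19-fold, and Il1r2, the decoy receptor for interleukin 1, by at least 1.91-fold. Trappc5, Rin3, Lta4h, Dab2, Tnip3, Fh1, Vrk1, Arl8b and Cd7 followed. Ifitm1 was the most abundant of them, at 3664 CPM with anti-PD1, 1802 with IL15 superagonist, 3831 with the combination, 1873 with fusion and 3930.5 with PBS. Klrd1 and Cd7 are also genes of lymphocytes, and in the Cd3-positive T-cell gate Klrd1 was 387 CPM with anti-PD1 and 358 with PBS, close to its 402 and 489.6 CPM in members. The T-cell marker list, by contrast, summed to 11.8 to 39.3 CPM in members and 3566 to 4185 CPM in the T-cell gate, with Cd8b1 and Themis at 0. These comparisons describe cells chosen by their own counts, so no test is attached.

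Marker lists of neighbouring cell types were below the level of their own gates, but the sum of the monocyte list was substantial. The macrophage list summed to 593 to 827 CPM in members and 9854 to 17361 CPM in a macrophage gate with at least 10 C1q UMIs, with Mertk at 0 in members. For the classical monocyte list the sums were 2230.3 to 3719.7 CPM in members and 8889 to 12562 CPM in a monocyte gate with at least 5 Ly6c2 UMIs. Plac8 led this sum in PBS members, and Chil3 was at 0 there. With Ly6c2 itself left out, Plac8 was 2449 of 4307 CPM in PBS members with Ly6c2 and 1419.6 of 2984 CPM in those without. The cDC2 identity list beyond the selection summed to 2394 to 2871 CPM in members, below the monocyte list in anti-PD1, combination and PBS. The identity list was 1025 to 1657 CPM in the cDC1 gate, 984 to 1335 in the monocyte gate and 1226 to 1631 in the macrophage gate. Clec10a and Mgl2 were 589 and 419 of its 2583 CPM in PBS members with no Ly6c2 UMI. Il1rl2 and Epcam, also of this list, had 0 UMIs in PBS members. Genes shared by dendritic cells include Cst3, the growth factor receptor gene Flt3 and the transcription factor gene Zbtb46. They summed to 8658 to 10335 CPM in members, against 28052 to 50083 CPM in the cDC1 gate and 3112 to 4089 CPM in the monocyte gate. Most of the sum in members was Cst3, at 7014 of 9447 CPM in PBS members with no Ly6c2 UMI. Flt3 was 75.7 CPM in those members and Zbtb46 35.8 CPM. Flt3 itself was 51.1 CPM with anti-PD1, 38.7 with IL15 superagonist, 29.9 with the combination, 65.5 with fusion and 70.9 with PBS, above the 1.42 to 11.5 CPM of the monocyte gate. Hemoglobin genes were at 0 in members of all 5 libraries. The members thus lay between cDC1 and monocytes in the summed dendritic list, which is mostly Cst3, and carried the lectins of cDC2.

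**Figure D2:**
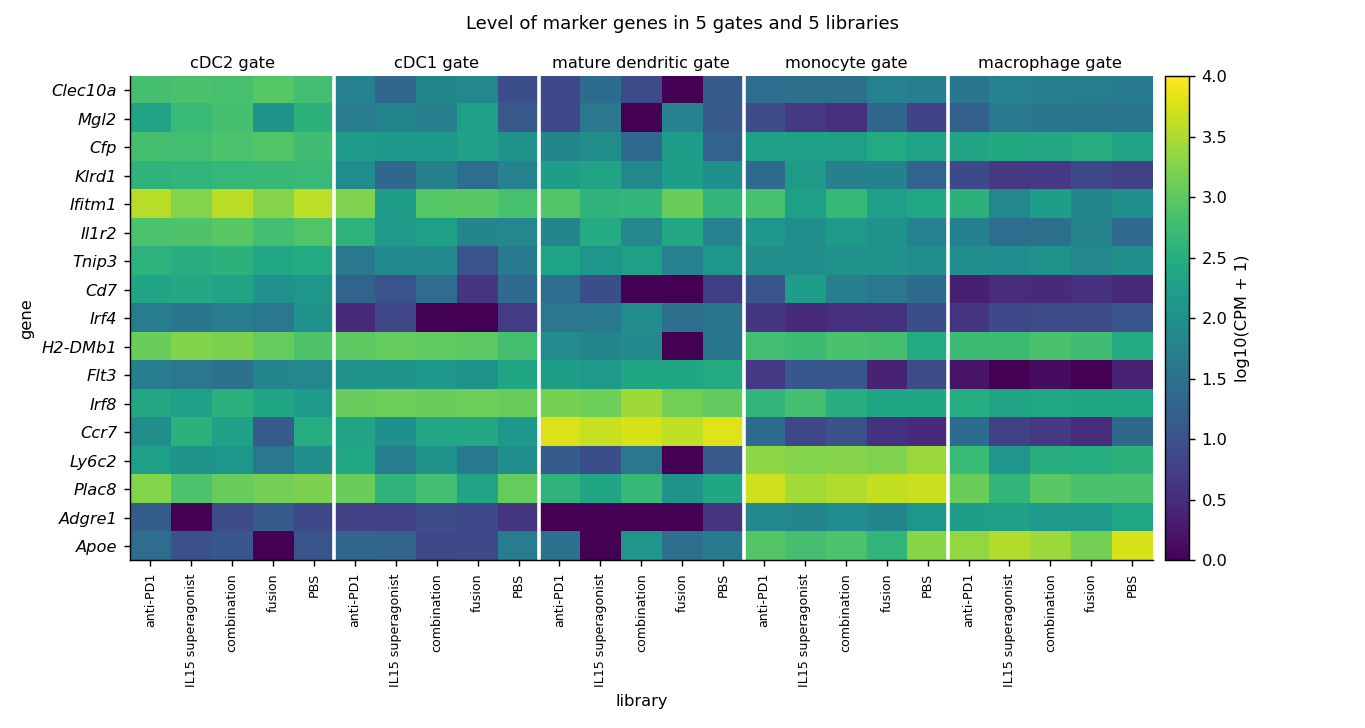
Level of 17 genes as log10(CPM + 1) in the cDC2 gate and 4 other gates, with the 5 libraries side by side within each gate. Clec10a and Mgl2 are bright in the cDC2 columns, Irf8 and Flt3 in the cDC1 and mature columns, Ccr7 in the mature columns, Ly6c2 and Plac8 in the monocyte columns, and Apoe and Adgre1 in the macrophage columns.

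MHC class II had the highest sum of the 30 gene lists in the members and differed little. The list of 9 genes summed to 37356 CPM with anti-PD1, 38201 with IL15 superagonist, 40625 with the combination, 40291 with fusion and 35835 with PBS, above the 29893 to 34791 CPM of the cDC1 gate. Members had to hold a UMI of H2-DMb2, a gene of the same pathway, and cDC1 barcodes did not. That difference is therefore not independent of the selection. H2-Aa, the alpha chain of the I-A molecule, was 13314, 13638, 14647, 15037 and, in PBS, 12676 CPM, with libraries in the same order as the list sums. Of the 8 list genes with enough counts, 0 were 2-fold higher or lower in anti-PD1 than in PBS, beside 4.51% of all genes compared, and the median log2 ratio was 0.07. In combination against PBS 1 of 8 was higher and 0 lower, beside 7.49% of all genes, with a median of 0.09. In IL15 superagonist against PBS 1 of 7 was higher and 0 lower, beside 7.23%, with a median of -0.04. That gene was H2-DMb1 in both, at 1263 CPM with anti-PD1, 1721 with IL15 superagonist, 1644 with the combination, 1113 with fusion and 792 with PBS. H2-DMb1 is nearly identical to H2-DMb2, a gene of the selection, and reads could be split between them by the authors' counting. Ciita, the master regulator of MHC class II, was 50.6 to 65.8 CPM across the 5 libraries.

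Costimulatory genes differed by gene. Cd86, a ligand for CD28 on T cells, was 175 CPM with anti-PD1, 131 with IL15 superagonist, 225 with the combination, 170.3 with fusion and 154 with PBS. Cd274, which encodes the PD-1 ligand PD-L1, was 121, 107, 112, 170.3 and, in PBS, 99.6 CPM. Of the 13 costimulatory and checkpoint ligand genes with enough counts, 2 were 2-fold higher in anti-PD1 than in PBS, Tnfsf9 (the ligand 4-1BBL) and Vsir, and 0 were lower, beside 2.41% and 2.10% of all genes. Tnfsf9 was 319.7 CPM with anti-PD1, 173 with IL15 superagonist, 95.8 with the combination, 144 with fusion and 135 with PBS, or 2.36-fold higher (1.83 to 3.09) in anti-PD1 than in PBS and 3.32-fold lower (2.50 to 4.50) in combination than in anti-PD1. Interleukin 15 itself was scarce, with Il15 at 3.14 to 7.10 CPM and its receptor chain Il15ra at 1.69 to 9.43 CPM outside fusion. Il12b, a chain of interleukin 12, had at most 9.43 CPM, and Il1b, interleukin 1 beta, 2227 to 3734 CPM.

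The comparison of anti-PD1 with PBS addresses the blockade of PD-1 alone. Of 3238 genes compared, 146 differed by 2-fold (4.51%), 78 of them higher (2.41%) and 68 lower (2.10%). By the nearer bound of the interval the higher genes were led by Rsad2, Cebpb, Ifit2, Ccrl2, Nfil3, Cnn3, Ddit4 and Rnh1, and the lower by Ccl22, Gdap10, Nr4a3, Cd209e, Ccr7, Wnt11, Crtc2 and Erdr1. Type I interferon response genes stood above this background in anti-PD1, with 7 of 20 higher and 0 lower and a median log2 ratio of 0.76, against 0.05 for all genes. The 7 were Rsad2, Ifit1, Ifit2, Irf7, Mx1, Oasl2 and Xaf1. The list also summed higher in anti-PD1 than in PBS in the cDC1 gate, at 3785 and 2552 CPM. The same held in the mature, macrophage and T-cell gates, but not in the monocyte gate, at 9289 and 9405 CPM. Among members with no UMI of the monocyte gene Ly6c2 the list's median was 0.17, and Rsad2, Ifit1, Ifit2 and Mx1 turned to lower. These turns rest on few UMIs. A single PBS member without Ly6c2 held 12 of the 17 Rsad2, 12 of the 17 Ifit2 and 26 of the 39 Ifit1 UMIs of PBS. Of the interferon-gamma response list, 2 of 17 were higher, Gbp4 and Fgl2, and 0 lower, with a median of 0.35, which was -0.00 among members with no Ly6c2 UMI.

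Nfil3, a transcription factor that takes part in dendritic and innate lymphoid development, was 270.0 CPM with anti-PD1, 149 with IL15 superagonist, 226 with the combination, 91.7 with fusion and 96.2 with PBS, or 2.79-fold higher (2.08 to 3.84) in anti-PD1 than in PBS. Ccrl2, a receptor that binds chemerin without signalling, was 205 CPM with anti-PD1, 50.6 with IL15 superagonist, 50.3 with the combination, 498 with fusion and 65.8 with PBS, or 3.08-fold higher (2.17 to 4.55). It was high in anti-PD1 and fusion and even in the other 3. Ddit4, a stress-induced inhibitor of the growth regulator mTOR, was 213 CPM with anti-PD1, 86.4 with IL15 superagonist, 110 with the combination, 39.3 with fusion and 77.7 with PBS.

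Genes of dendritic maturation and migration were lower with anti-PD1, with 4 of 9 of that list lower, beside 2.10% of all genes, 0 higher and a median of -0.70. For 3 of the 4 the 2-fold difference was lost under a stricter or looser selection. Ccr7, the receptor that guides dendritic cells to lymph nodes, was 95.2 CPM with anti-PD1, 372 with IL15 superagonist, 192 with the combination, 13.1 with fusion and 297 with PBS, or 3.11-fold lower (2.34 to 4.20) in anti-PD1 than in PBS. With at least 3 Cd209a UMIs the log2 ratio of Ccr7 was -0.38, beside -1.64. Ccl22, which attracts regulatory T cells through Ccr4, was 28.4, 80.4, 45.6, 91.7 and, in PBS, 149 CPM, or 5.13-fold lower (3.19 to 8.97). Il4i1, an amino acid oxidase that dampens T cells, was 2.45-fold lower (1.68 to 3.67), or -0.71 on the log2 scale with at least 3 Cd209a UMIs, beside -1.29. The other was Ccl17, at 96.6 CPM in 5 of 77 members of anti-PD1 and 196 CPM in 11 of 75 of PBS. Its direction turned with at least 2 H2-DMb2 UMIs, to a log2 ratio of 0.63, beside -1.02. Fscn1, a gene of mature cells, was held at 0 by the selection, and the mature gate held 39 barcodes with anti-PD1 and 115 with PBS. The share of these values that comes from cells close to that gate was not tested.

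The comparison of IL15 superagonist with PBS addresses the cytokine alone. Of 2076 genes compared, 150 differed by 2-fold (7.23%), 73 of them higher (3.52%) and 77 lower (3.71%). The higher genes were led by Cebpb, Errfi1, Eif5a, Icam1, Pcbp1, Tgfb1, H2-DMb1 and Aldoa, and the lower by Ccl4, Hspa1a, Sod1, Kit, B4galt5, Hnrnpa0, BC005537 and Mapkapk2. Icam1, an adhesion molecule for T cells, was 48.3 CPM with anti-PD1, 265 with IL15 superagonist, 138 with the combination, 144 with fusion and 92.9 with PBS, or 2.84-fold higher (2.02 to 4.07) in IL15 superagonist than in PBS. Cish, an inhibitor of cytokine signalling induced by STAT5, was 188 CPM with IL15 superagonist and 89.5 CPM with PBS, or 2.09-fold higher (1.43 to 3.08). Of the 5 Fc receptor genes compared, Fcgr2b and Fcgr3 were higher and 0 were lower, Fcgr2b at 384 CPM with IL15 superagonist and 160.4 CPM with PBS. Fcgr2b was short of 2-fold with at least 3 Cd209a UMIs, at 0.85 on the log2 scale.

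Type I interferon genes were not higher in IL15 superagonist, with 0 of 9 higher, 2 lower (Rtp4 and Zbp1), beside 3.52% and 3.71% of all genes, and a median log2 ratio of -0.62. Zbp1, a sensor of nucleic acids, was 296 CPM with anti-PD1, 86.4 with IL15 superagonist, 159 with the combination, 223 with fusion and 201 with PBS. Cxcl10, a chemokine that draws Cxcr3-positive T cells, was 1696 CPM with anti-PD1, 622 with IL15 superagonist, 1750.4 with the combination, 2201 with fusion and 1462 with PBS, or 2.35-fold lower (2.02 to 2.75) in IL15 superagonist than in PBS. It was the lowest of the 5 with IL15 superagonist, where 8 of 34 members had a UMI, or 17.6% once thinned. The T-cell gate, which was not thinned and had a median depth of 5396 UMIs, held 9.91%. With at least 1 Cd209a UMI the log2 ratio of Cxcl10 was -0.98, just short of 2-fold. Of 9 chemokine genes, 3 were lower (Ccl4, Cxcl2 and Cxcl10), beside 3.71% of all genes, and 0 higher. Without the highest cell of each gene Cxcl2 was -0.54 on the log2 scale, beside -1.19 with it.

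The chemokine genes Ccl3 and Ccl4 are neighbours on chromosome 11. Ccl4 was 655 CPM (597 to 718) with anti-PD1, 89.3 (60.3 to 128) with IL15 superagonist, 101 (77.4 to 128) with the combination, 655 (486 to 863) with fusion and 431 (379 to 487) with PBS. It was low in the IL15 superagonist and combination libraries alone, at 4.75-fold (3.29 to 7.29) and 4.26-fold lower (3.24 to 5.72) than in PBS. Ccl4 was also lower in those 2 libraries in the cDC1, monocyte and macrophage gates, at 740.2 and 763 CPM in the monocyte gate, against 1242 CPM with PBS. Ccl2 and Ccl3, at 9.43 and 6.29 CPM with the combination and 67.5 and 62.5 CPM with PBS, rested on few cells, since 1 cell held 70.0% and 81.1% of their UMIs in PBS. Without the highest cell the log2 ratio of Ccl3 was -1.69, beside -3.16 with it, and with at least 1 Cd209a UMI that of Ccl2 turned to 0.88, beside -2.74.

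The comparison of combination with PBS addresses both agents together. Of 3246 genes compared, 243 differed by 2-fold (7.49%), 110 of them higher (3.39%) and 133 lower (4.10%). The higher genes were led by Gzma, Hspb1, Ccl5, Cebpb, Iigp1, Clec4n, Fbxl5 and Plaur, and the lower by Ccl3, Ccl4, Ccl2, Hs6st1, Cxcr4, Casc3, Zbtb18 and Pvrl1. Most UMIs of Gzma, Ccl5 and Hspb1 came from single cells. One member held 86 of the 90 Gzma UMIs and 110 of the 131 Ccl5 UMIs of the library, with 31 UMIs of Nkg7, genes of cytotoxic lymphocytes, at a depth of 19046 UMIs. Another held 60 of the 61 UMIs of Hspb1, a small heat shock protein. Without the highest cell of each gene the log2 ratio to PBS was 3.07 for Gzma, 1.62 for Ccl5 and 1.48 for Hspb1, beside 7.40, 3.69 and 6.84 with it, and Gzma and Hspb1 had 0 UMIs in PBS, so that their ratios depend on the added 0.5.

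Interferon-gamma response genes stood above the background in combination, with 6 of 18 higher and 0 lower, beside 3.39% and 4.10% of all genes. Their median log2 ratio was 0.75, against 0.05 for all genes. The 6 were Iigp1, Gbp2, Gbp4, Gbp7, Tgtp2 and Serpina3g, most of them GTPases that defend cells against microbes. Iigp1 was 81.0 CPM (61.3 to 105) with anti-PD1, 83.4 (55.4 to 121) with IL15 superagonist, 228 (192 to 268) with the combination, 249 (149.8 to 389) with fusion and 45.6 (30.0 to 66.3) with PBS. It was high in combination and fusion, although 1 fusion cell held 94.7% of its UMIs there, and was 4.92-fold higher (3.30 to 7.84) in combination than in PBS. Gbp2 was 395, 250.1, 533, 511 and, in PBS, 248 CPM, and PBS was also the lowest of the libraries other than fusion for Gbp2 and Tgtp2 in all 5 other gates. Iigp1, Gbp7 and Serpina3g were lowest in PBS in 5 of the 6 gates, counting members. The whole list summed higher with the combination than with PBS in each gate, at 5224 and 3429 CPM in the monocyte gate and 2689 and 2014 CPM in the cDC1 gate. Anti-PD1 stood above the combination in the cDC1, monocyte and macrophage gates, at 3905, 7153 and 4953 CPM. It stood below the combination in members and in the mature and T-cell gates. In the T-cell gate IL15 superagonist was highest, at 1786 CPM, beside 1647 CPM with the combination. The type I interferon list had 0 of 16 higher and 2 lower (Ifit1 and Ifit3) in combination against PBS, beside the same 3.39% and 4.10%, with a median of -0.17. Without its highest cell in each library Ifit1 was no longer past 2-fold there, at -0.61 on the log2 scale, beside -1.76.

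Clec4n, which encodes the fungal receptor dectin-2, was 244 CPM with anti-PD1, 289 with IL15 superagonist, 549.9 with the combination, 118 with fusion and 172 with PBS, or 3.18-fold higher (2.55 to 4.02) in combination than in PBS. Plaur, the urokinase receptor, was 406, 453, 707, 419 and, in PBS, 282 CPM, or 2.50-fold higher (2.10 to 3.01). Areg, amphiregulin of tissue repair, was 163 CPM with the combination and 52.3 CPM with PBS, or 3.09-fold higher (2.07 to 4.83). Irf8, the transcription factor of cDC1, was 260 CPM with anti-PD1, 194 with IL15 superagonist, 357 with the combination, 223 with fusion and 155 with PBS, beside 1156 to 1327 CPM in the cDC1 gate.

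Combination was also set against each agent alone, comparisons that do not use the PBS library. Against anti-PD1, 96 of 3415 genes differed by 2-fold (2.81%), 43 of them higher (1.26%) and 53 lower (1.55%). The type I interferon list had 10 of 20 genes lower and 0 higher, and its median log2 ratio was -1.01, against 0.01 for all genes, or -0.36 among members with no Ly6c2 UMI. Of 18 interferon-gamma genes 1 was higher, Iigp1 at 2.80-fold (2.06 to 3.89), and 0 lower, with a median of 0.45. Against IL15 superagonist, 50 of 2078 genes differed by 2-fold (2.41%), 29 of them higher (1.40%) and 21 lower (1.01%). There 6 of the 14 interferon-gamma genes were higher and 0 lower at a list median of 0.91, among them Socs1, an inhibitor of cytokine signalling, at 2.96-fold (2.05 to 4.52), and Cxcl10 at 2.81-fold (2.42 to 3.28). Without the highest cell of each gene Ccl5 and Gzma, which were higher in combination than in IL15 superagonist, turned to -0.25 and -0.07 on the log2 scale.

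**Figure D3:**
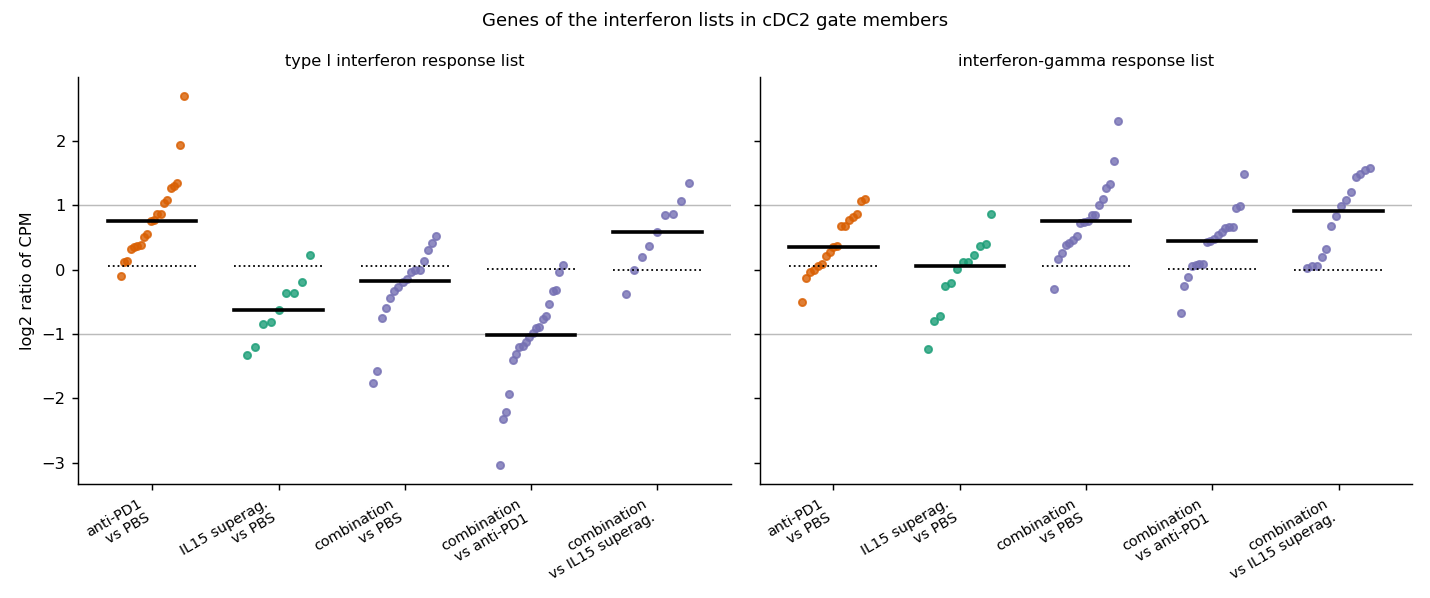
Log2 ratio of CPM for each gene of the type I interferon (left) and interferon-gamma (right) response lists that had enough counts, in 5 comparisons. Thick lines are list medians, dotted lines the median of all genes and grey lines 2-fold, and the medians are 0.76 for anti-PD1 vs PBS on the left and 0.75 for combination vs PBS on the right.

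Promoters of 4 type I interferon genes are shown, since genes of that list were higher together in anti-PD1 and lower together in combination against anti-PD1. The factor ISGF3, which type I interferon activates, binds a core of GAAA, any 2 bases and GAAA, which on the other strand reads TTTC, any 2 bases and TTTC. In the 250 bases before the start of 27025 genes in the RefSeq promoter table, build GRCm38.p6, 936 genes (3.46%) held that core on either strand. The core was held by 10 of the 19 type I list genes found there (52.6%), by 11 of 17 interferon-gamma genes (64.7%) and by 0 of 7 MHC class II genes. Of the type I genes 2-fold higher in anti-PD1 than in PBS, the 10 included Rsad2 and Ifit1. They did not include Ifit2, Irf7, Mx1, Oasl2 or Xaf1. Each of the 4 genes shown had to hold a match, and Ifit3 and Isg15 were not 2-fold higher in anti-PD1 than in PBS. A match is a description of the letters in this window. The stretches run 5' to 3' on the gene's strand, from 170 to 21 bases before the start, with matches in capitals, and matches of Isg15 overlap.
Rsad2, chr12:26456473-26456622, minus strand: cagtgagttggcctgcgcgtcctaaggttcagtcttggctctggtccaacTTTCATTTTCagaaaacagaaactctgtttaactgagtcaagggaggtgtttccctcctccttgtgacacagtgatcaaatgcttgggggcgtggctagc
Ifit1, chr19:34640719-34640868, plus strand: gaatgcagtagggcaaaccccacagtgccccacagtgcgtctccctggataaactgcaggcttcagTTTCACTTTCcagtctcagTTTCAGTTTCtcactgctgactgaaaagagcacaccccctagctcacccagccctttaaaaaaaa
Ifit3, chr19:34583359-34583508, plus strand: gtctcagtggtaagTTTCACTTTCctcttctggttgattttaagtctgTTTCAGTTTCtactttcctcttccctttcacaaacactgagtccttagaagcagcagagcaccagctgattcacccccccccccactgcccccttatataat
Isg15, chr4:156200839-156200988, minus strand: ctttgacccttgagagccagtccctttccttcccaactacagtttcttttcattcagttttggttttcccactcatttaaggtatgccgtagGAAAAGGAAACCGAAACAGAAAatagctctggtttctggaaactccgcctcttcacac
Rsad2 and Isg15 thus hold the core on opposite strands, and Ifit1 and Ifit3, both on chromosome 19, hold 2 matches each.

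Of these 4 genes Rsad2, which encodes the antiviral enzyme viperin, was 192 CPM with anti-PD1, 0 with IL15 superagonist, 37.7 with the combination, 354 with fusion and 28.7 with PBS. In IL15 superagonist 3 UMIs among 335826 would be 8.93 CPM, so a count of 0 does not exclude a low level. Rsad2 had UMIs in 14 of 77 members of anti-PD1, 0 of 34 of IL15 superagonist, 4 of 56 of combination, 2 of 8 of fusion and 4 of 75 of PBS, beside 3.18% of barcodes in the T-cell gate, whose median depth was 5396 UMIs against 8837 in members. Thinned to 2000 UMIs a barcode, 9.09% of members had it with anti-PD1, 0% with IL15 superagonist, 3.57% with the combination and 4.00% with PBS. One anti-PD1 member held 63 of its 135 UMIs, and Rsad2 was 6.52-fold higher (4.02 to 11.8) in anti-PD1 than in PBS. Its log2 ratio of 2.70 was 0.59 with at least 2 H2-DMb2 UMIs and -1.15 among members with no Ly6c2 UMI. The latter value rests on 8 UMIs in anti-PD1 and 17 in PBS, 12 of them in a single PBS member.

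Ifit1, which binds foreign RNA, was 161 CPM with anti-PD1, 5.96 with IL15 superagonist, 18.9 with the combination, 39.3 with fusion and 65.8 with PBS, or 8.21-fold lower (4.69 to 17.0) in combination than in anti-PD1. One cell held 50.4% of its UMIs in anti-PD1 and 66.7% with PBS. Among members with no Ly6c2 UMI the log2 ratio of Ifit1 was 0.02 for combination to anti-PD1 and -1.76 for anti-PD1 to PBS. Ifit3 was 73.9, 0, 18.9, 157 and, in PBS, 57.4 CPM. Isg15, a ubiquitin-like modifier, was the broadest, with 848 CPM in 60 of 77 members of anti-PD1, 279.9 CPM in 19 of 34 of IL15 superagonist, 501 CPM in 35 of 56 of combination, 773 CPM in 5 of 8 of fusion and 503 CPM in 51 of 75 of PBS. Its level was highest in anti-PD1 and lowest in IL15 superagonist, while combination and PBS were even, and 31.3% of the T-cell gate had a UMI.

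The members were not uniform in these genes. Per 10000 UMIs of a cell, the type I interferon list ranged in anti-PD1 from 0 through a median of 42.1 to 408, in IL15 superagonist from 0 through 18.2 to 61.9, in combination from 0 through 17.4 to 174, in fusion from 7.72 through 21.4 to 171, and in PBS from 1.41 through 23.1 to 214. Cells over 100 numbered 8 of 77 with anti-PD1, 0 of 34 with IL15 superagonist, 2 of 56 with the combination, 1 of 8 with fusion and 5 of 75 with PBS. Of the type I list UMIs, the 14 highest cells held 50% or more in anti-PD1, 8 cells in IL15 superagonist, 8 with the combination, 1 with fusion and 15 with PBS. The median of anti-PD1 was thus above those of the other libraries, and its highest cells stood further out.

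Ly6c2, a surface antigen gene of monocytes that the selection did not use, divided the members. At least 1 UMI was found in 22 of 77 members of anti-PD1, or 28.6% (18.8% to 40.0%), in 20.6% (8.70% to 37.9%) with IL15 superagonist, 42.9% (29.7% to 56.8%) with the combination, 37.5% (8.52% to 75.5%) with fusion and 18.7% (10.6% to 29.3%) with PBS. After every barcode was thinned to 2000 UMIs the shares were 14.3%, 8.82%, 16.1%, 12.5% and, in PBS, 9.33%. Ly6c2 was 39.3 to 179 CPM in members and 1694 to 2526 CPM in the monocyte gate, and at most 37.2 CPM in the mature gate. T cells also express the gene and give no background for it, with a UMI in 68.1%.

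In anti-PD1 the type I interferon list summed to 9389 CPM in the 22 members with Ly6c2 and 3623 CPM in the other 55. The sums were 2198 and 2055 CPM with IL15 superagonist, 3062 and 2660.0 CPM with the combination, 1693 and 6331 CPM with fusion, where 1 cell held most of them, and 3219 and 3291 CPM with PBS. The sums lay far apart in anti-PD1 and, in the other direction, in the 8 fusion members. Among members without a Ly6c2 UMI, the list's median log2 ratio of anti-PD1 to PBS was 0.17, beside 0.76 over all members, and Rsad2, Ifit2, Ifit1 and Mx1 turned, to -1.15, -0.71, -1.76 and -0.66. These turns rest on 8, 11, 12 and 8 UMIs in anti-PD1 and 17, 17, 39 and 12 in PBS. Most of the PBS UMIs of Rsad2, Ifit2 and Ifit1 came from a single cell. The list's median for combination to anti-PD1 was -0.36 in members without a Ly6c2 UMI, beside -1.01. The interferon-gamma list summed to 8496 CPM with Ly6c2 and 3297 CPM without in anti-PD1, and its median log2 ratio of anti-PD1 to PBS was -0.00 without Ly6c2-positive members, beside 0.35 with them. For combination to anti-PD1 it was 0.99, beside 0.45, and for combination to PBS 0.86, beside 0.75. The part of Ly6c2-positive members' monocyte genes in these values was not tested.

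MHC class II and monocyte genes also differed with Ly6c2. The MHC class II list summed to 27206 CPM with Ly6c2 and 41182 CPM without in anti-PD1, 35684 and 38937 CPM with IL15 superagonist, 35804 and 44753 CPM with the combination, 39569 and 40916 CPM with fusion, and 24873 and 38528 CPM with PBS. It was lower with Ly6c2 in each of the 5 libraries. The classical monocyte list, which was summed without Ly6c2 here, was 5776 and 2698 CPM with anti-PD1 and 4307 and 2984 CPM with PBS. It was 3185 and 1801 CPM with IL15 superagonist, 3795 and 1960.0 CPM with the combination and, not higher with Ly6c2, 2484 and 2591 CPM with fusion. The shared dendritic list was higher with Ly6c2 in the combination, at 10011 and 7499 CPM, and lower with it in the other libraries. Genes of cDC2 identity beyond the selection summed to 1920.3 and 2573 CPM with anti-PD1 and 2432 and 2583 CPM with PBS.

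**Figure D4:**
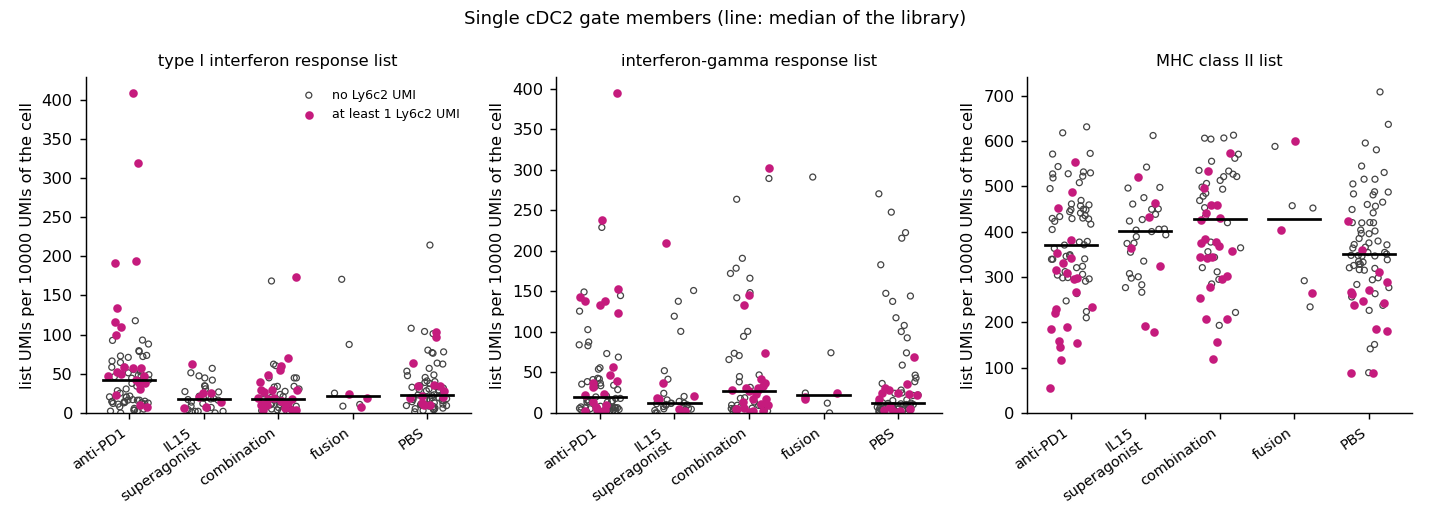
UMIs of the type I interferon, interferon-gamma and MHC class II lists per 10000 UMIs in each cDC2 gate member, by library. Filled points are members with at least 1 Ly6c2 UMI, open points those with 0, and lines are library medians, and the filled points of anti-PD1 reach 408 on the left.

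Several genes separated PBS from the treated libraries, in comparisons that share the PBS members. Cebpb, on chromosome 2 from 167688915 to 167690418 (mm10), encodes a transcription factor of monocytes and their offspring. It was 402 CPM (357 to 452) with anti-PD1, 423 (356 to 498) with IL15 superagonist, 548 (492 to 609) with the combination, 524 (374 to 713) with fusion and 128 (101 to 161) with PBS. All 4 treated libraries were above PBS, by 3.12-fold (2.42 to 4.09) with anti-PD1, 3.29-fold (2.48 to 4.41) with IL15 superagonist and 4.25-fold (3.33 to 5.55) with the combination. Nr4a3, on chromosome 4 from 48045153 to 48086447, a nuclear receptor gene induced by activation, was 190.4 CPM with anti-PD1, 345 with IL15 superagonist, 270.3 with the combination, 236 with fusion and 694 with PBS. It was lower in every treated library, by 3.64-fold (2.99 to 4.46) with anti-PD1, 2.0-fold (1.63 to 2.49) with IL15 superagonist and 2.56-fold (2.14 to 3.09) with the combination.

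Cxcr4, the receptor for the chemokine Cxcl12, was 104 CPM with anti-PD1, 86.4 with IL15 superagonist, 53.4 with the combination, 26.2 with fusion and 221 with PBS, and Irf4, the transcription factor of cDC2, was 48.3, 35.7, 47.1, 39.3 and, in PBS, 109.7 CPM. Both were lower than in PBS with anti-PD1, IL15 superagonist and the combination. The fusion levels rest on few UMIs, since 3 UMIs among its 76345 are 39.3 CPM, and do not settle a direction for Irf4. Aldoa, a glycolytic enzyme, was 715, 771, 782, 472 and, in PBS, 343 CPM, and of 15 glycolysis genes 3 were higher (Aldoa, Tpi1 and Pgam1) and 0 lower both in anti-PD1 and in combination against PBS, beside 2.41% and 3.39% of all genes that were higher.

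These differences were not limited to cDC2. Over anti-PD1, IL15 superagonist, combination and PBS, and over the 6 gates including T cells, PBS was the lowest for 11 and the highest for 8 of the 95 genes named in comparisons with PBS. The 11 were Aldoa, Tpi1, Pgam1, Eif5a, Pcbp1, Tgfb1, H2-DMb1, Ppt1, Fcgr3, Gbp2 and Tgtp2, and the 8 were Nr4a3, Tnfrsf1b, Sod1, B4galt5, Hnrnpa0, BC005537, Mapkapk2 and Casc3. Cebpb was lowest in PBS in 5 of 6 gates, with 2574 CPM with anti-PD1 and 1256 CPM with PBS in the monocyte gate, and Cxcr4 was highest in PBS in 5. Irf4 was 3.35 CPM with anti-PD1 and 8.23 CPM with PBS in the monocyte gate, and 37.0 and 34.6 CPM in the mature gate. With 1 library per treatment, treatment and library cannot be told apart.

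**Figure D5:**
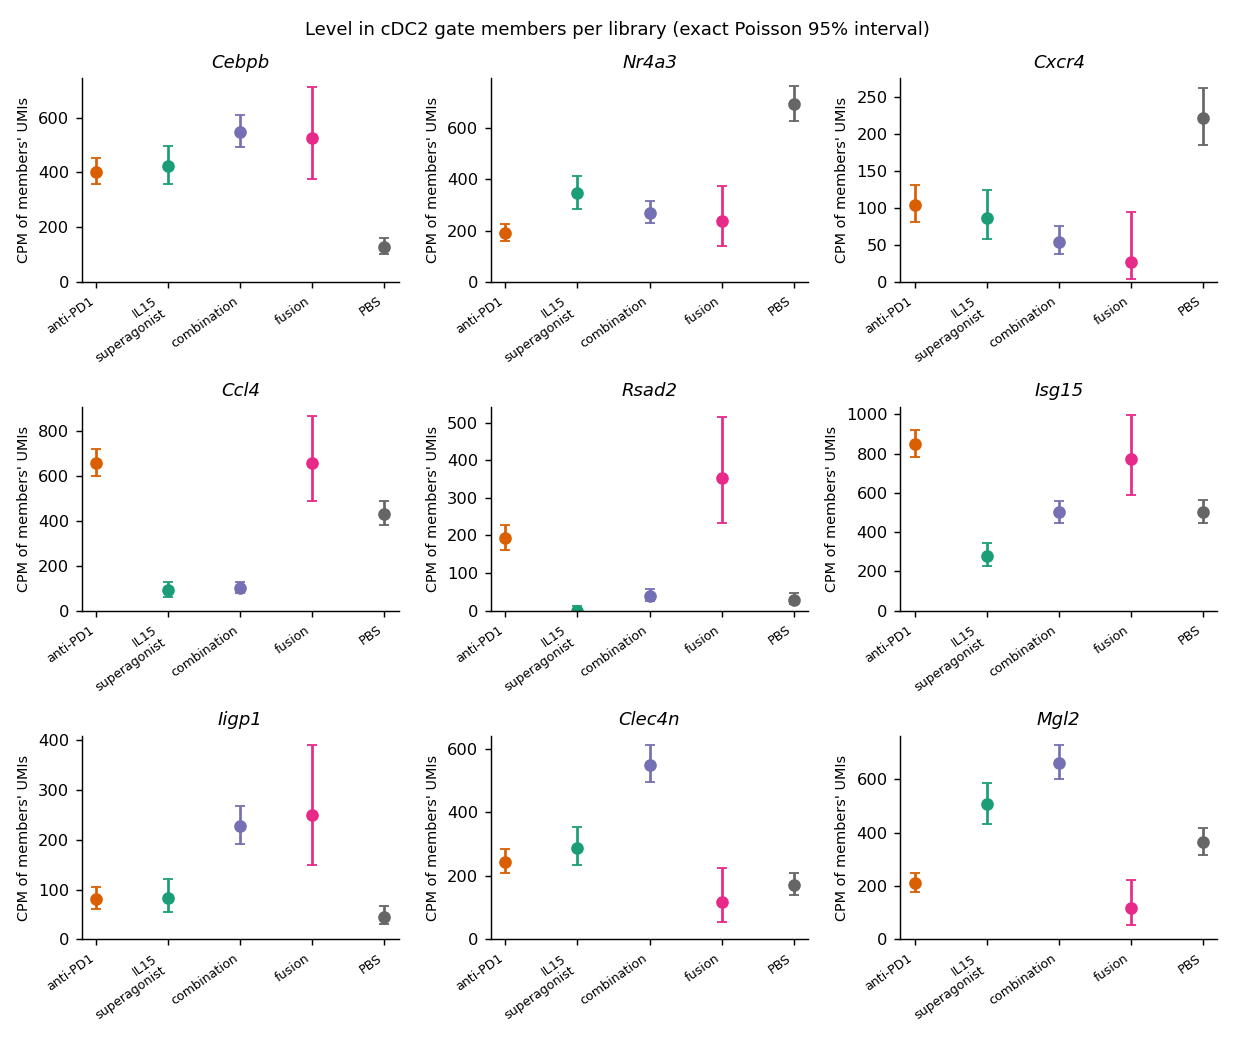
Level of 9 genes in cDC2 gate members of each library, as CPM of the members' UMIs with exact Poisson 95% intervals. PBS stands below the other libraries for Cebpb and above them for Nr4a3 and Cxcr4, and Ccl4 is low in IL15 superagonist and combination.

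The 8 fusion members allow levels only. The 3 deepest held 52.3% of their UMIs, and 1 cell held 66.7% of the interferon-gamma list and 56.7% of the type I list. Clec10a at 891 CPM and the MHC class II list at 40291 CPM were close to those of the other libraries, while the chemokine list summed to 9902 CPM, beside 2329 to 4098 CPM elsewhere. Cxcl10 was 2201 CPM, of which 1 cell held 90.5%, and Ccl17 616 CPM in 3 of 8 members, so these levels describe single cells.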

How the data were processed

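Values deposited by the authors are whole-number UMI counts of each gene in each barcode. Per the submitters' processing notes, Cell Ranger 2.1.1 and mm10 were used. The barcode calling, the annotation and the counting of reads shared by similar genes are not stated in the labels or the processing notes. The files list 28692 genes, and 125 entries whose symbol occurs more than once were left out of single-gene values. Barcodes with at most 10% mitochondrial UMIs were kept, and no doublet caller was run, so members over 2 times their library's median UMIs were left out as an alternative. That alternative kept the combination member with 86 Gzma UMIs, whose depth of 19046 UMIs was under the limit. The other gates were set on Xcr1 and Clec9a, Fscn1 and Ccr7, Ly6c2, C1q or Cd3 genes, with no barcode in 2 gates.

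Member UMIs were summed per library. A gene was compared when the mean CPM of both libraries, times the smaller library's member total, came to at least 20 UMIs. Genes of the selection, of mitochondria and of ribosomes, and receptor segments of lymphocytes, were left out, and 0.5 was added to each count. Named genes were the 8 higher and 8 lower per comparison with PBS by the nearer interval bound, and list genes past 2-fold in any comparison. Genes set against the other gates were the 15 with the largest smallest fold. Genes named for a cell type, a low level or a single cell are descriptions. The 30 lists hold 412 entries, of which 406 were found. Members, lists and rules were chosen with earlier results of these data known. Thinning drew 2000 UMIs per barcode, and 20 to 427 shallower barcodes were left out in 2 libraries. Coordinates come from GENCODE for mm10 and promoters from RefSeq. Python 3.11.15, numpy 2.4.6, scipy 1.17.1, pandas 2.3.3 and matplotlib 3.10.9 were used, and the ratio and its interval were tested on simulated counts.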

Additional observations from a re-analysis of the deposited data

How the results depend on the processing

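Each library is the only one of its treatment, so leaving out a library leaves no comparison. No paired analysis was possible because no treatment has a second library. Of 1254 list medians under the alternatives, 1241 stayed inside the interval of the main median over the list's genes. A further 13 left it, and 0 changed sign while called. Only a main median of 2-fold or more was called, so that 0 was nearly fixed in advance. Smaller medians did change sign, such as the interleukin 4 type list in anti-PD1 against PBS, which ranged from -0.9 to 0.32. Of 1808 values of named genes, 1731 stayed inside the interval of the main ratio, 62 left it and 15 changed sign. Thinning the barcodes before selection left 24 members with anti-PD1, 20 with IL15 superagonist, 20 with the combination, 2 with fusion and 22 with PBS, too few for ratios of genes. Members with 2 or more H2-DMb2 UMIs or with no Ly6c2 UMI were too few in IL15 superagonist, at 24 and 27. Below, the cause of a change was not tested unless fewer members, fewer genes or another limit gives it by construction.

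After thinning, the shares were 0.329% with anti-PD1, 0.300% with IL15 superagonist, 0.235% with the combination, 0.0231% with fusion and 0.399% with PBS, and the ratios 0.752 for IL15 superagonist to PBS and 0.785 for combination to IL15 superagonist. With 2 or more H2-DMb2 UMIs the shares were 0.768% with anti-PD1 and 0.824% with PBS, and with no Ly6c2 UMI 0.754% with anti-PD1 and 0.377% with the combination. Without lymphoid barcodes in the denominator the shares were 1.74%, 1.65%, 2.29%, 1.09% and, in PBS, 2.08%. The ratios to PBS were then 0.793 for IL15 superagonist, 1.10 for combination and 0.522 for fusion, with 1.32 for combination to anti-PD1 and 0.474 for fusion to combination.

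Counts of genes depended on the limits. At an expected count of 50 in place of 20, 24 genes were higher and 18 lower in anti-PD1 than in PBS, 15 and 16 with IL15 superagonist, 36 and 30 with the combination, 11 and 15 in combination against anti-PD1, and 8 and 2 against IL15 superagonist. With any gene of at least 1 UMI these were 1641 and 1533, 1679 and 1408, 1733 and 1796, 1397 and 1645, and 1184 and 1492. At 1.5-fold they were 336 and 307, 302 and 225, 443 and 429, 234 and 264, and 141 and 128. Lower genes in anti-PD1 than in PBS were 43 with at least 3 Cd209a UMIs, and higher genes in combination than in IL15 superagonist 50 with at least 1. With no Ly6c2 UMI the lower genes were 76 in combination against PBS and 29 against anti-PD1. Without the highest cell of each gene, an alternative chosen after seeing the data, 43 genes were higher in IL15 superagonist than in PBS and 8 lower in combination than in IL15 superagonist.

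Single genes turned in 4 settings. With no Ly6c2 UMI the log2 ratio of anti-PD1 to PBS was -1.15 for Rsad2, -0.71 for Ifit2, -1.76 for Ifit1 and -0.66 for Mx1, and that of combination to anti-PD1 0.02 for Ifit1, 0.58 for Ifit3, 0.58 for Mx1, 1.24 for Rsad2 and 0.02 for Usp18. The values of anti-PD1 to PBS rest on 8 to 12 UMIs in anti-PD1 and 12 to 39 in PBS. With 2 or more H2-DMb2 UMIs Ccl17 was 0.63 and Ifit1 -0.75 in anti-PD1 against PBS. With at least 1 Cd209a UMI Ccl2 was 0.88 in combination against PBS and 0.56 against anti-PD1. Without the highest cell Ccl5 was -0.25 and Gzma -0.07 in combination against IL15 superagonist.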
